A study of Homo sapiens with 6 samples.

Results

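The osteoblast lineage genes described here are 9 genes chosen by symbol for their place in bone formation: the transcription factors RUNX2, SP7 and DLX5, the enzyme ALPL, the matrix proteins SPARC, SPP1, IBSP and BGLAP, and the secreted receptor TNFRSF11B. The rule used symbols and not measured values. Of the 9, 6 had a row among the 15585 genes of the table of read counts, and 2, ALPL and TNFRSF11B, had enough reads to be among the 11844 genes tested. DLX5, SPP1 and IBSP had no row and are not analysed here. RNA sequencing was done on U2OS cells, a human osteosarcoma line, transfected for 48 h with a control siRNA (siCTR, 3 libraries) or with siRNA against LSD1 (siLSD1, 3 libraries). LSD1, encoded by KDM1A, removes methyl groups from lysine 4 of histone H3. The cells carried no other stated change, and which of the LSD1 siRNAs went into which library is not given in the sources used here, so that an effect of an siRNA sequence on other transcripts cannot be told apart from loss of LSD1. Nothing in the labels says that the libraries came from separate cultures, and p-values then measure only the spread between these libraries.

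Osteoblasts build bone. RUNX2 commits a mesenchymal precursor to the lineage, SP7 (osterix) acts downstream of it, and maturing cells then switch on alkaline phosphatase, collagen I and, late, the bone proteins osteopontin, bone sialoprotein and osteocalcin. Osteoblasts also restrain bone-resorbing osteoclasts by secreting osteoprotegerin, a decoy for the ligand RANKL. LSD1 has been described in other cells as a brake on osteoblast differentiation, which is why the genes of this lineage were compared between siCTR and siLSD1 in a line that arose from bone.

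Total counts lay between 12513511 and 13561344 reads per library, and no 2 libraries were alike within sampling noise. The targeted gene set the groups apart: KDM1A had 6140, 6493 and 6573 reads with siCTR and 1110, 1198 and 1246 with siLSD1. Its level fell by 2.44 on the log2 scale (SE 0.11, adjusted p = 2.27e-07, from edgeR's quasi-likelihood fit adjusted by Benjamini-Hochberg over all genes tested).

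The lineage genes fell into a single abundant gene and a set with few reads. Level was compared between genes as FPKM, the read count scaled by transcript length and by library depth. In siCTR, ALPL stood at 123 ± 6.94 FPKM (SD, n = 3), above 97.5% of all rows. TNFRSF11B (0.656 ± 0.053 FPKM) and BGLAP (0.7 ± 0.498 FPKM) followed far below, above 30.1% and 30.5% of rows, and did not differ from each other beyond their spread. SP7 (0.0474 ± 0.0411 FPKM), RUNX2 (0.0141 ± 0.016 FPKM) and SPARC (0.0139 ± 0.0121 FPKM) were lowest and overlapped in their spread. ALPL was again far above the rest in siLSD1, at 133 ± 15.9 FPKM. The order of the others changed, with TNFRSF11B at 0.871 ± 0.31 and BGLAP at 0.31 ± 0.355 FPKM. RUNX2 (0.0322 ± 0.0103 FPKM), SPARC (0.0275 ± 0.0309 FPKM) and SP7 (0.0155 ± 0.0134 FPKM) were lowest and again overlapped in their spread. By these markers the line carried an abundant early enzyme of the lineage, with few reads of its regulators RUNX2 and SP7. A missing row was not read as an absence, since LRP6, a WNT co-receptor that most cells express, had none either.

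**Figure D1:**
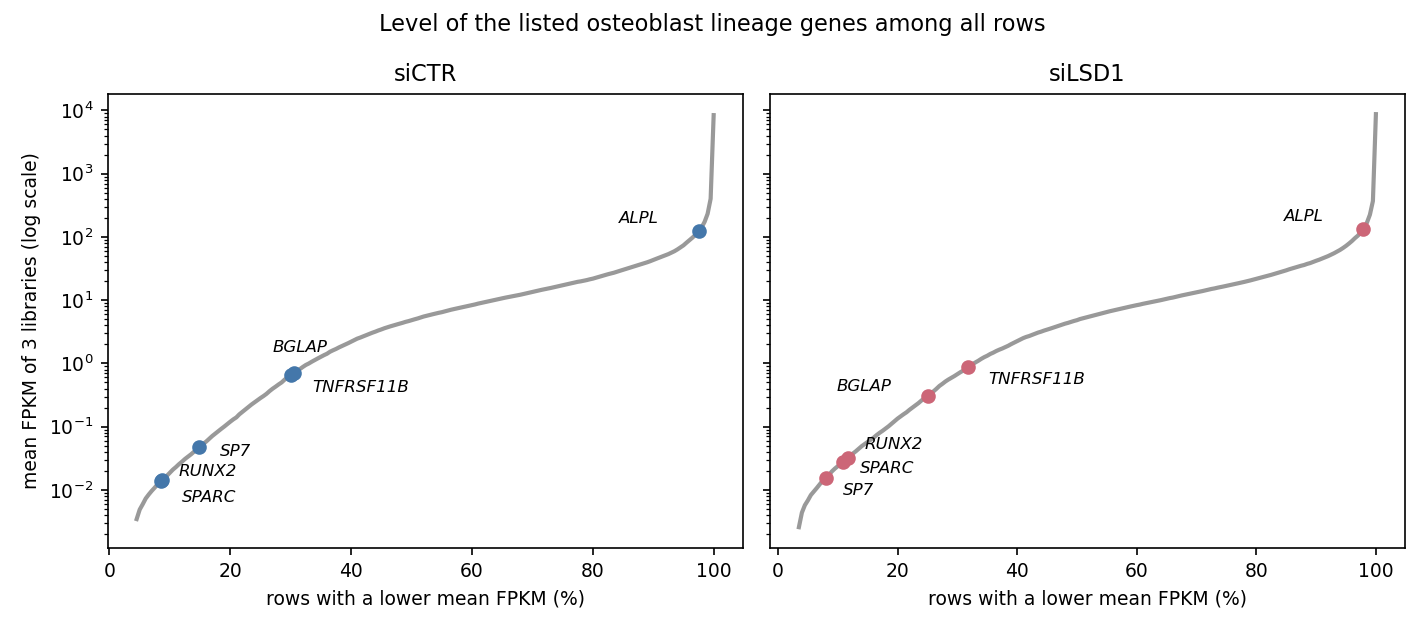
Mean FPKM of 3 libraries (y axis, log scale) against the percentage of the 15585 rows with a lower mean FPKM (x axis), in siCTR (left) and siLSD1 (right). The grey line is the distribution of all rows and the points are the 6 listed lineage genes, with ALPL near the top at 123 FPKM in siCTR and the other 5 below 1 FPKM in both groups, where RUNX2 and SPARC nearly coincide in siCTR.

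The stretches of 250 bases before the RefSeq starts of RUNX2, BGLAP and ALPL are shown because they set the regulator and a late gene, both with few reads, beside the abundant enzyme. They were read from RefSeq on GRCh38.p14, 5′ to 3′ on the strand of the gene, which is the plus strand for these 3. Capitals mark the core of the RUNX binding motif, TGTGGT or its reverse complement ACCACA, in RUNX2 and BGLAP, and the GC box, GGGCGG or its reverse complement CCGCCC, in ALPL.
RUNX2 distal promoter, chr6:45328080-45328329: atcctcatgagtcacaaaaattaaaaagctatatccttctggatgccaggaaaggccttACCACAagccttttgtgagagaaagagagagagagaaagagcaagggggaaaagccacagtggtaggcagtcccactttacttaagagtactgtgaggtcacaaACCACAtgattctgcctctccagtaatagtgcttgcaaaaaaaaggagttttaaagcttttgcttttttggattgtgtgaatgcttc
BGLAP promoter, chr1:156241934-156242183: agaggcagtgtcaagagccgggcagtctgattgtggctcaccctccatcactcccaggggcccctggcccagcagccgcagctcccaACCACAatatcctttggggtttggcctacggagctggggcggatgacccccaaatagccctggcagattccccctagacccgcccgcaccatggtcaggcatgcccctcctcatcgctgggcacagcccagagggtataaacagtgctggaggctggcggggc
ALPL promoter, chr1:21509173-21509422: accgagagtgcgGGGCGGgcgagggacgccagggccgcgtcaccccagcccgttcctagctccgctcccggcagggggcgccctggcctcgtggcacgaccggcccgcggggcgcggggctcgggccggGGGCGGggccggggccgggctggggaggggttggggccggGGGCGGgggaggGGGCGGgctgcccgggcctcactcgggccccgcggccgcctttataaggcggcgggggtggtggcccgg

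The distal RUNX2 promoter was AT-rich, with a GC content of 41.6%, no CpG and 2 RUNX cores. The BGLAP promoter had a GC content of 64.4%, with 1 RUNX core, 2 GC boxes (not capitalised) and 1 TATA box (TATAAA or its reverse complement TTTATA). In ALPL the GC content was 83.6%, and the stretch held 34 CpG dinucleotides, 4 GC boxes, 1 TATA box and no RUNX core. The contrast does not hold for every start of these genes. The second RUNX2 start had a GC content of 78%, with 34 CpG and 1 GC box, and the other 2 ALPL starts had 60.4% and 49.6%, with 9 and 8 CpG and no GC box. The counts per gene do not say which start was in use. These other starts had no RUNX core, nor did the promoters of IBSP and SPARC, and that of SPP1 had 1. Among 35116 promoters of the same length, 11.0% held a RUNX core, 42.6% a GC box and 10.7% a TATA box. Both strands were searched, and none of the motifs lies within another. A match to these letters is no evidence that a factor binds there. RefSeq promoters matched 6 of the 9 genes by symbol.

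ALPL, tissue-nonspecific alkaline phosphatase, frees phosphate for mineral by cleaving pyrophosphate at the cell surface. The gene lies on the plus strand of chromosome 1, positions 21509397 to 21578410 in GENCODE 44 on GRCh38, and overlaps an unnamed gene on the same strand. It had 4596, 4162 and 4541 reads with siCTR and 5411, 4596 and 4344 with siLSD1, which as CPM, the read count scaled to a common library depth, came to 354, 324 and 338 against 403, 369 and 322. Replicates 1 and 2 of siLSD1 lay above every siCTR library and replicate 3 below every one, so that the groups overlapped. The means were 339 ± 15.0 and 365 ± 40.7 CPM (SD, n = 3 each). The log2 fold change was 0.11 (SE 0.11, 95% interval -0.14 to 0.36, adjusted p = 0.71 by the same edgeR fit). Leaving out siLSD1 replicate 1 gave 0.03, and leaving out siLSD1 replicate 3 gave 0.19. The lowest of these counts, 4162 reads, was far above the minimum for testing. Correcting each library for GC content and length gave 0.18 (SE 0.07), with an adjusted p of 0.163 from edgeR.

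TNFRSF11B, osteoprotegerin, is the lineage's brake on osteoclasts. It lies on the minus strand of chromosome 8, positions 118923557 to 118951885. It had 20, 19 and 23 reads with siCTR and 23, 20 and 40 with siLSD1, where replicate 3 stood alone and the other two fell within the siCTR range. The means were 1.58 ± 0.12 and 2.09 ± 0.756 CPM (SD, n = 3 each). The log2 fold change was 0.41 (SE 0.33, 95% interval -0.30 to 1.12, adjusted p = 0.601 by the same edgeR fit), and it was 0.07 (edgeR adjusted p = 0.942) without siLSD1 replicate 3.

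BGLAP, osteocalcin, is a late product of mature osteoblasts that binds calcium in bone mineral. It lies on the plus strand of chromosome 1, positions 156242184 to 156243317, within the read-through gene PMF1-BGLAP on the same strand, so that reads of the 2 could be split between them. BGLAP had 12, 4 and 4 reads with siCTR and 7, 1 and 1 with siLSD1. Replicate 1 held most of the reads in both groups, and the groups overlapped. The totals were 20 reads (exact Poisson 95% interval 12.2 to 30.9) and 9 reads (4.12 to 17.1), a ratio of 0.449 (0.18 to 1.03). These intervals, like the others on read totals, cover counting error only. An exact two-sided permutation test of the CPM gave p = 0.3, and with 3 libraries against 3 the smallest p it can give is 0.1. Within each replicate number the CPM was lower in siLSD1, and this test did not use the numbers.

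RUNX2, the lineage's master regulator, lies on the plus strand of chromosome 6 at positions 45328157 to 45664349, with SUPT3H and RUNX2-AS1 on the other strand. How reads in such overlaps were counted is not given, so its read counts may fall short of its RNA. It had 1, 0 and 3 reads with siCTR and 2, 3 and 4 with siLSD1. The groups overlapped, with totals of 4 reads (exact Poisson 95% interval 1.09 to 10.2) and 9 reads (4.12 to 17.1), and an exact permutation test gave p = 0.2. In most libraries RUNX2 was at or under 3 reads, the level taken here as the floor, so no fold is given and a difference was not detectable at this depth.

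SP7, a zinc-finger factor needed for bone formation after RUNX2, lies on the minus strand of chromosome 12, positions 53326575 to 53345315. It had 3, 0 and 3 reads with siCTR and 1, 0 and 1 with siLSD1, totals of 6 (exact Poisson 95% interval 2.2 to 13.1) and 2 (0.242 to 7.22), with p = 0.4 by the exact permutation test. SPARC, osteonectin, is a collagen- and calcium-binding matrix protein that osteoblasts and fibroblasts normally make in quantity. Its gene is on the minus strand of chromosome 5, positions 151661096 to 151686975, opposite CLMAT3. It had 1, 1 and 0 reads with siCTR and 3, 1 and 0 with siLSD1, totals of 2 (0.242 to 7.22) and 4 (1.09 to 10.2), with p = 0.5 by the exact permutation test. Both genes stayed at or under the floor of 3 reads in all 6 libraries, and nothing can be said of a change.

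**Figure D2:**
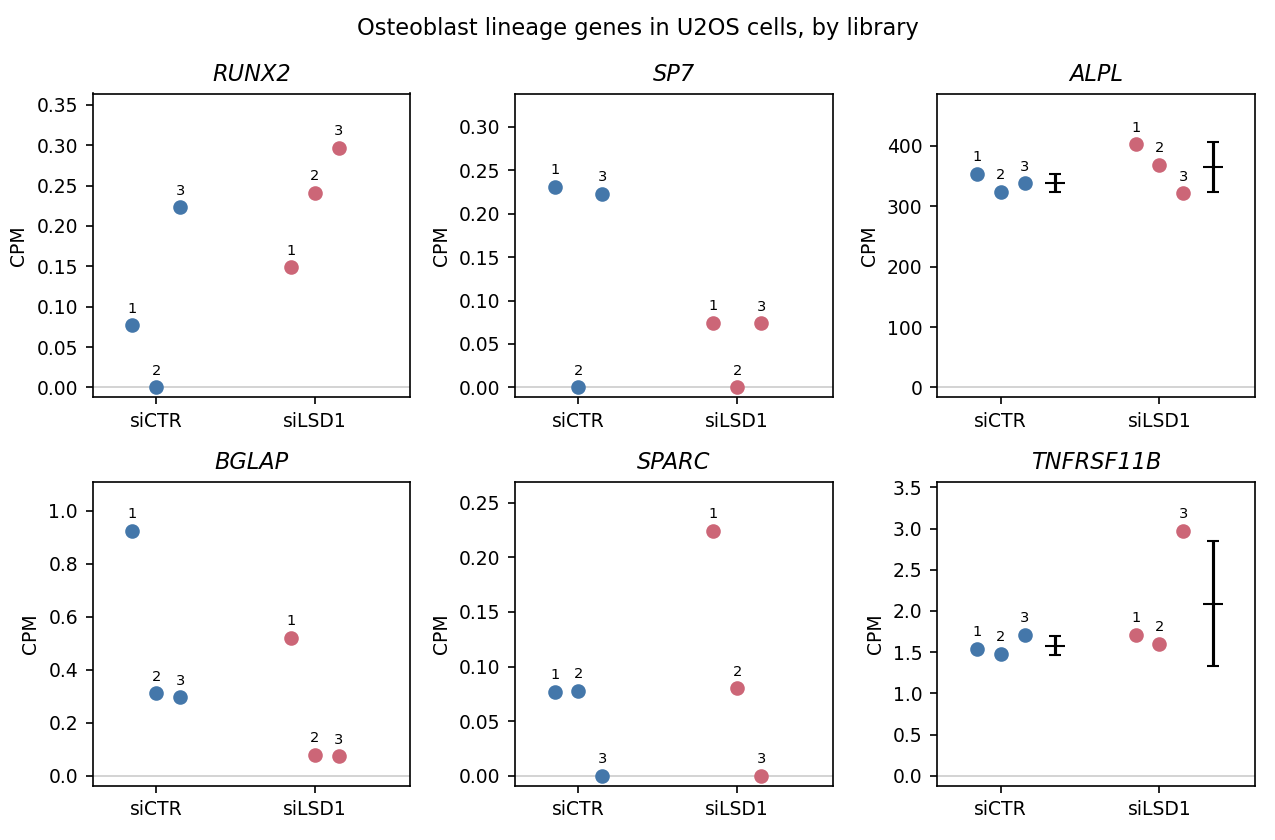
CPM (y axis, linear, a separate scale in each panel) of the 6 listed lineage genes in each siCTR (blue) and siLSD1 (red) library, numbered by replicate, with the mean (tick) and SD (bar) of 3 libraries beside ALPL and TNFRSF11B alone, the 2 tested genes. In every panel the groups overlap: ALPL lay between 324 and 354 CPM in siCTR and between 322 and 403 CPM in siLSD1.

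Over the lineage genes as a whole, neither of the 2 tested passed an adjusted p of 0.05 by edgeR, against 1.44% of all genes tested, and the same count of 0 came from DESeq2 and limma-voom. Neither had an unadjusted edgeR p under 0.05, against 14.0% of genes tested, although ALPL did in the edgeR fit with GC and length correction. Neither had groups that did not overlap in CPM, against 21.4% of genes tested, and the groups overlapped in the 4 listed genes below the filter as well. When all rows were fitted with edgeR without a filter on low counts, all 6 entered the fit and 0 had an adjusted or an unadjusted p under 0.05. Of all 15585 rows, 290 had an adjusted p under 0.05 in this edgeR fit. For RUNX2, SP7 and SPARC the reads were too few for a difference to be detectable, so the count says little of them. In bulk RNA, fewer cells expressing a gene and less RNA per cell cannot be told apart.

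The other genes of osteoblast biology were taken from 6 lists (98 genes, 83 with a row, 68 tested). Their median log2 fold change was -0.01, the same as over all genes tested. Of the 68, 2 passed an adjusted p of 0.05 by edgeR (2.94%, against 1.44% of all genes tested), FN1 upward and FGFR1 downward, and 15 had an unadjusted p under 0.05 (22.1%, against 14.0%), 9 higher and 6 lower in siLSD1.

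**Figure D3:**
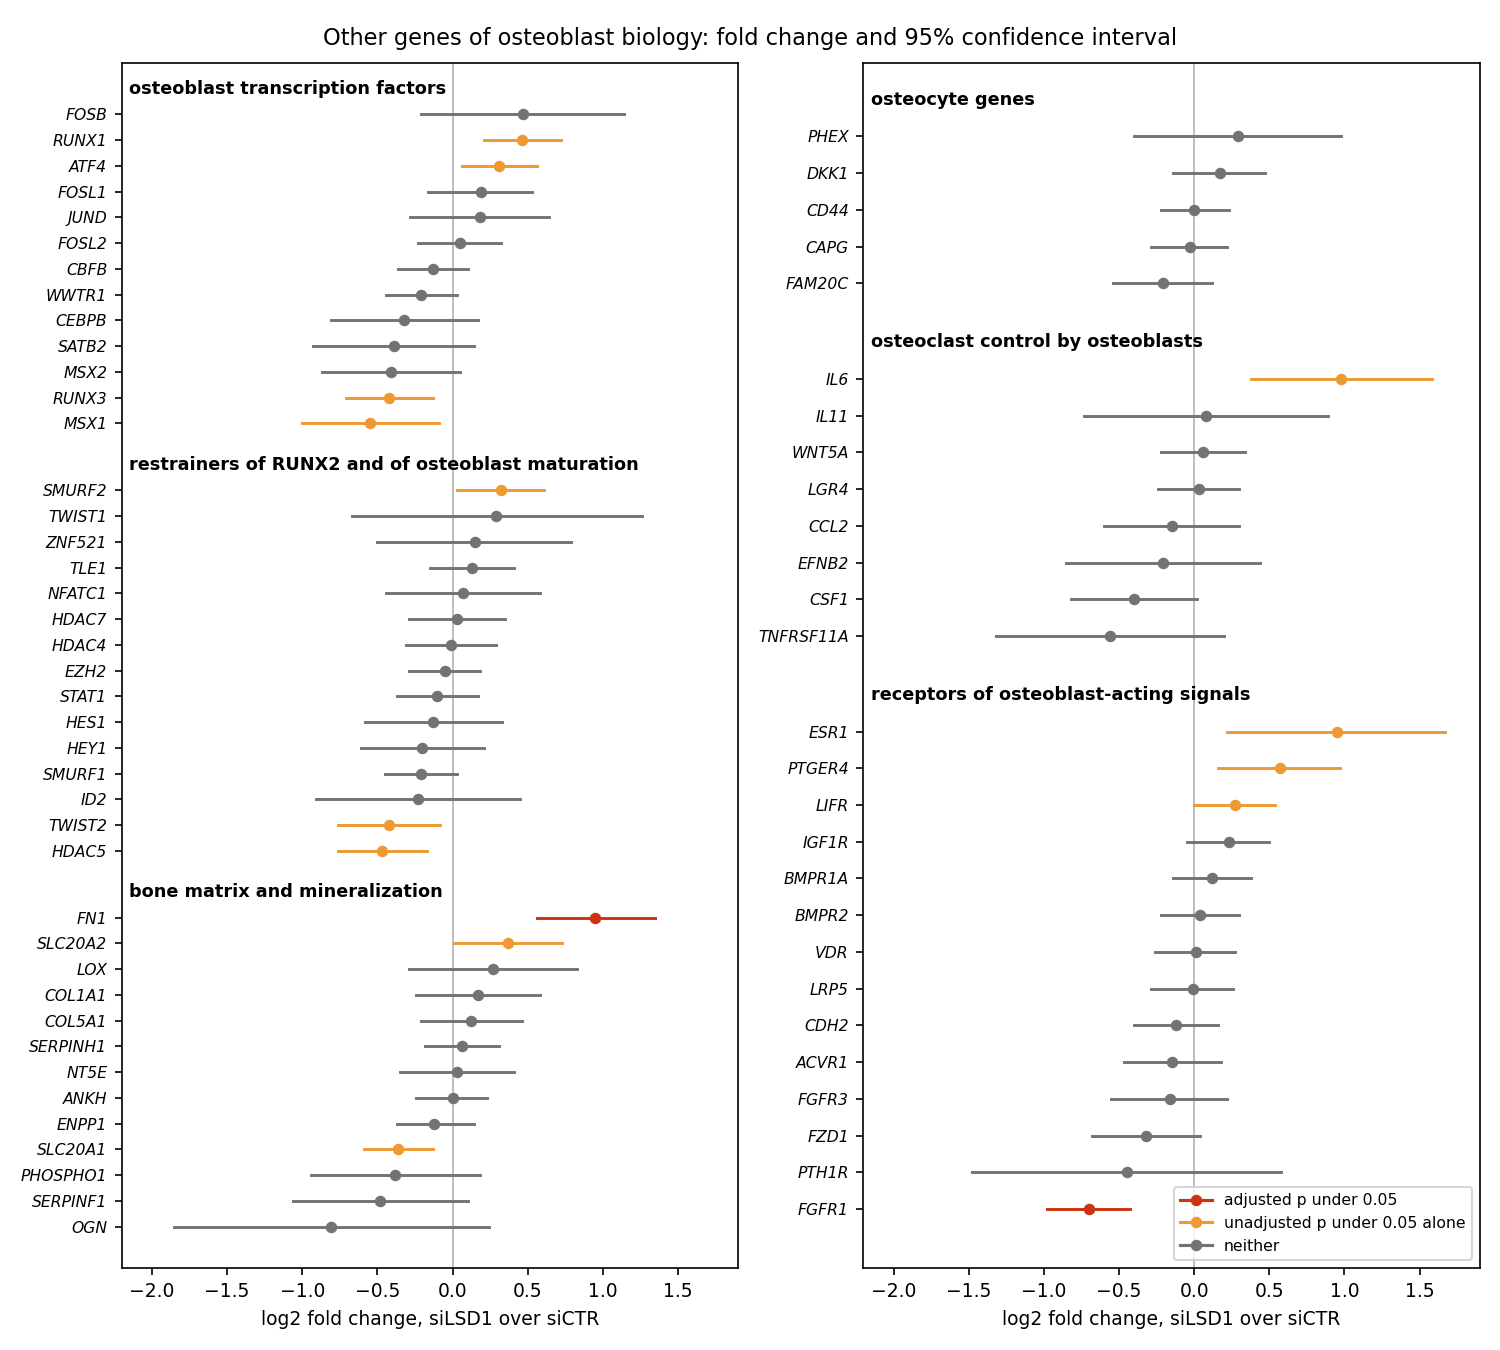
Log2 fold change of siLSD1 over siCTR (x axis) with its 95% confidence interval (bar) from edgeR for the 68 tested genes of the 6 lists of osteoblast biology, ordered by value within each list. FN1 (0.95) and FGFR1 (-0.70) passed an adjusted p of 0.05 (red), 13 genes passed an unadjusted p alone (orange), and most intervals span 0.

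Of the 13 tested transcription factors, 0 passed the adjusted edgeR p (1 did with DESeq2), and 4 had an unadjusted p under 0.05. RUNX2 has 2 relatives that bind the same motif, RUNX1 and RUNX3, and all 3 work with the partner CBFB. RUNX1, best known from blood formation, had 693, 603 and 735 reads with siCTR and 899, 902 and 1003 with siLSD1, so that every siLSD1 library was higher in CPM (51.7 ± 4.13 and 71.2 ± 3.81 CPM, SD, n = 3 each). Its log2 fold change was 0.46 (SE 0.12) with an edgeR adjusted p of 0.0762, between 0.00577 and 0.0787 over 8 alternatives, 4 of which passed. The 6 fits that left out a library gave edgeR adjusted p from 0.106 to 0.34. RUNX3 had 350, 303 and 306 reads with siCTR and 233, 244 and 243 with siLSD1, every siLSD1 library being lower (24.4 ± 2.22 and 18.3 ± 1.14 CPM, SD, n = 3 each), with a log2 fold change of -0.42 (SE 0.13, edgeR adjusted p = 0.174, between 0.0437 and 0.182 over 8 alternatives, 2 of which passed). CBFB, named after its values were seen, was at 97.4 ± 4.28 and 89.1 ± 3.51 CPM (log2 fold change -0.13, edgeR adjusted p = 0.619), and every siLSD1 library was lower here too. Groups that did not overlap in CPM were found in 21.4% of all genes tested. Per length in siCTR, RUNX1 stood at 6.27 and RUNX3 at 5.59 FPKM beside 0.0141 FPKM for RUNX2, so that RNA of RUNX2's relatives and partner was plentiful beside that of RUNX2. ATF4 (log2 fold change 0.31, edgeR adjusted p = 0.239) and MSX1 (-0.55, edgeR adjusted p = 0.26), also named after their values were seen, were the others with an unadjusted p under 0.05.

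**Figure D4:**
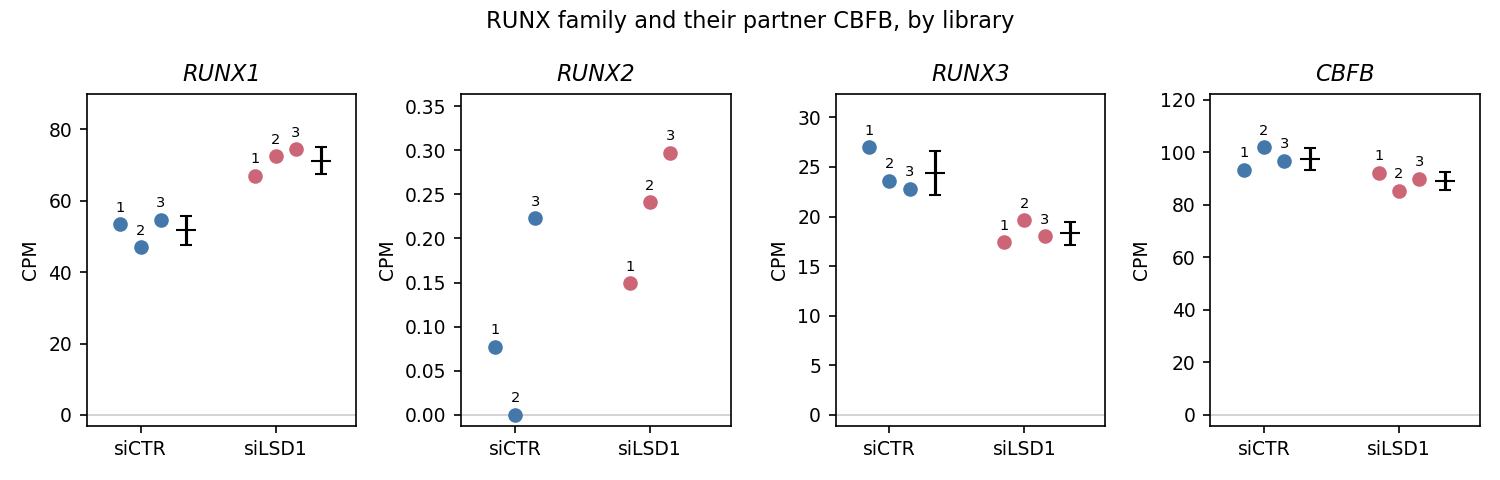
CPM (y axis, linear, a separate scale in each panel) of RUNX1, RUNX2, RUNX3 and CBFB in each siCTR (blue) and siLSD1 (red) library, numbered by replicate, with the mean (tick) and SD (bar) of 3 libraries beside the 3 tested genes. RUNX1 was higher in all 3 siLSD1 libraries and RUNX3 and CBFB lower, none past an adjusted p of 0.05, while RUNX2 stayed below 0.3 CPM in every library. Groups did not overlap in 21.4% of all genes tested.

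Restrainers of RUNX2 and of osteoblast maturation were widely expressed, with 15 of 16 genes tested and a median log2 fold change of -0.05. None passed the adjusted p by edgeR, DESeq2 or limma-voom, and 3 had an unadjusted edgeR p under 0.05. HDAC5, a class II histone deacetylase, was at 76.4 ± 3.08 CPM in siCTR and 55.2 ± 9.95 in siLSD1 (SD, n = 3 each), with a log2 fold change of -0.47 (edgeR adjusted p = 0.133, between 0.00509 and 0.151 over 8 alternatives, 2 of which passed). TWIST2, a basic helix-loop-helix factor that binds and inhibits RUNX2, was at 15.2 ± 0.372 and 11.3 ± 1.7 CPM (SD, n = 3 each), with -0.42 (edgeR adjusted p = 0.238). SMURF2, a ubiquitin ligase named after its value was seen, was the other with an unadjusted p under 0.05 (0.32, edgeR adjusted p = 0.298).

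In the list of bone matrix and mineralization, 13 of 24 genes were tested, with a median log2 fold change of 0.03, and fibronectin (FN1), on which osteoblasts and fibroblasts lay down collagen, rose. FN1 had 382, 238 and 433 reads with siCTR and 640, 609 and 794 with siLSD1, which did not overlap. Its log2 fold change was 0.95 (SE 0.18, 95% interval 0.56 to 1.35, edgeR adjusted p = 0.0216). The adjusted edgeR p was 0.0505 without siLSD1 replicate 1 (log2 fold change 1.01) and 0.0541 without siLSD1 replicate 3 (0.85). Phosphate transporters gave values in both directions: SLC20A1 was at 166 ± 9.3 and 129 ± 7.03 CPM (SD, n = 3 each), with a log2 fold change of -0.36 (edgeR adjusted p = 0.141, between 0.0141 and 0.149 over 8 alternatives, 2 of which passed), and SLC20A2, named after its value was seen, had 0.37 (edgeR adjusted p = 0.33). COL1A1, the chief collagen of bone, had 170, 136 and 122 reads with siCTR and 200, 144 and 139 with siLSD1, 1.62 FPKM in siCTR, whereas COL5A1 stood at 42.4 FPKM. COL1A1 and COL5A1 were named after their values were seen. Of the other 11 genes of the list, 6 had too few reads to be tested and 5 had no row.

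Of 10 genes that mark osteocytes, the cells osteoblasts become once buried in bone, 5 were tested, with 0 past the adjusted p by edgeR, DESeq2 or limma-voom and 0 past the unadjusted edgeR threshold. SOST and DMP1, which define osteocytes, had 1 read each over all 6 libraries, and CD44 and DKK1, which many other cells express, stood at 48.4 and 28.0 FPKM in siCTR. These 4 genes were named after their values were seen.

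Among 8 tested genes by which osteoblasts control osteoclasts, 0 passed the adjusted p by edgeR, DESeq2 or limma-voom and 1, IL6, had an unadjusted p under 0.05. IL6, a cytokine that promotes resorption, had 23, 47 and 30 reads with siCTR and 58, 66 and 74 with siLSD1, all higher, with a log2 fold change of 0.98 (SE 0.28, edgeR adjusted p = 0.119, between 0.00556 and 0.125 over 8 alternatives, 2 of which passed). TNFSF11, which encodes RANKL, had no row, so that the balance of ligand and decoy was not analysed here.

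Of 14 tested receptors for signals that act on osteoblasts, FGFR1 fell. FGFR1, a fibroblast growth factor receptor that acts in osteoblast maturation, had 918, 740 and 839 reads with siCTR and 579, 469 and 491 with siLSD1, with no overlap. Its log2 fold change was -0.70 (SE 0.13, 95% interval -0.98 to -0.43, edgeR adjusted p = 0.0163). The adjusted edgeR p was 0.0503 without siCTR replicate 1 (log2 fold change -0.62), 0.0599 without siCTR replicate 3 (-0.72) and 0.122 without siLSD1 replicate 2 (-0.67). PTGER4, a receptor for prostaglandin E2, had 79, 81 and 109 reads with siCTR and 155, 109 and 136 with siLSD1 (log2 fold change 0.57, edgeR adjusted p = 0.183, between 0.0398 and 0.223 over 8 alternatives, 1 of which passed). ESR1 (0.95, edgeR adjusted p = 0.215) and LIFR (0.27, edgeR adjusted p = 0.348), named after their values were seen, were the others with an unadjusted p under 0.05, and the list's median was 0.0.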

How the data were processed

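RNA-seq of 6 U2OS libraries was analysed from a table of whole read counts and FPKM values per gene that the authors deposited. The deposited counts came from reads aligned with STAR, and the counter, annotation and genome build are not given in the sources used here. The authors' fold changes and p-values were not used, nor were 12 other per-library columns. The 3 pairwise tables of read counts, made separately, served as a second counting. Each joined a siCTR library to the siLSD1 library of the same number. Every row of the table holds 1 read or more in all, and a missing row was not read as 0.

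Read counts were tested with edgeR 4.0.16 (quasi-likelihood, TMM, minimum count 10) in R 4.3.3, with Benjamini-Hochberg adjustment over 11844 genes. The biological coefficient of variation was 12.6%. The scripts were tested on simulated data. CPM used TMM-scaled library sizes. The deposited FPKM served only for levels between genes. Alternatives were DESeq2 1.42.0, voom in limma 3.58.1, library size alone, no filter, 1 CPM in 3 libraries, the replicate block, the second counting, correction for GC content and length (known for 99.3% of tested genes), and leaving out each library. Positions came from GENCODE 44, matched by symbol for 15352 of 15585 rows.

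The 9 genes and all lists were chosen with earlier results of these data known. Named were the 9 genes, KDM1A, every listed gene past the adjusted p, the 2 with the smallest unadjusted p under 0.05 in each list, and the 2 with the highest FPKM in each marker list. The value of 1 marker gene that this rule names is not reported here.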

Additional observations from a re-analysis of the deposited data

How the results depend on the processing

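No lineage gene passed an adjusted p of 0.05 in any alternative or without any 1 library, and KDM1A passed in all of them, with log2 fold changes from -2.50 to -2.38. Correction for GC content and length took the lineage genes with an unadjusted p under 0.05 from 0 to 1 (ALPL). Of the 89 tested genes in all 13 other lists, 3 passed the adjusted p with edgeR, 2 higher and 1 lower, and the count was 5 with DESeq2, 13 with GC and length correction (7 higher, 6 lower) and from 1 to 3 when single libraries were left out, 1 being the count without siLSD1 replicate 1. With the replicate block it was 13 (6 higher, 7 lower). The labels do not say that the replicate numbers pair the libraries, so the main fit used no block. Deviations of same-numbered libraries correlated by 0.328, 0.0744 and 0.31, and across groups each library correlated best with its own number. These values do not settle whether the numbers mark pairs, and the deposited pairwise tables also set same-numbered libraries together. The block gave 897 genes over the whole table, GC and length correction 869, DESeq2 323 and no filter 290, against 171, and leaving out single libraries gave from 58 (without siCTR replicate 3) to 136, so that the background share of 1.44% moves as well. Over the 16 single genes refitted besides KDM1A, 198 values kept their call, 20 gained it, 6 lost it, and 0 changed direction past the threshold; the cause was not tested. RUNX1, RUNX3, HDAC5, SLC20A1, IL6, PTGER4, CEBPA, CDH1 and S100A4, past in some alternatives, passed in 0 of the 6 fits without 1 library. Depth limits RUNX2, SP7, SPARC and BGLAP.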

Other observations

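Marker genes of other cell types were counted in the same libraries, 51 genes in 7 lists, of which 21 could be tested. Of the 21, 1 passed an adjusted edgeR p of 0.05 (4.76%, against 1.44% of all genes tested) and 5 had an unadjusted p under 0.05 (23.8%, against 14.0%). Chondrocyte, skeletal muscle, osteoclast and leukocyte markers were low, with summed levels for the first 3 of 3.58 to 3.87, 3.66 to 6.24 and 2.08 to 2.93 CPM in siCTR and 2.98 to 5.04, 6.01 to 7.53 and 2.08 to 2.49 CPM in siLSD1. The most abundant of these 3 lists per length in siCTR were MATN3 (0.725 FPKM) and SOX9 (0.336) for cartilage, MYH3 (0.584) and DES (0.418) for muscle, and CTSK (0.981) and ACP5 (0.224) for osteoclasts. Among leukocyte markers, CD14 stood at 0.433 FPKM. In these 4 lists 6 genes could be tested, with none past an adjusted p of 0.05 by edgeR, DESeq2 or limma-voom, and 0 had an unadjusted edgeR p under 0.05. Of those too low to test, the osteoclast integrin ITGB3, named after its values were seen, had 5, 1 and 1 reads with siCTR and 6, 10 and 7 with siLSD1, all higher. Its totals were 7 and 23 reads, a ratio of 3.28 (95% interval 1.36 to 9.04, counting error only), with p = 0.1 by the exact permutation test, the smallest it can give. Its siCTR replicates 2 and 3 were under the floor of 3 reads. Groups that did not overlap in CPM were found in 21.4% of genes tested. Of the other osteoclast markers with a row, CTSK (65 and 47 reads in total) and ACP5 (16 and 10) were lower in siLSD1. MMP9 (8 and 10) and CALCR (1 and 2), named after their values were seen, were higher.

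Adipocyte markers summed to 168 to 193 CPM in siCTR and 164 to 177 in siLSD1, led per length by LPL (29.6 FPKM in siCTR) and CEBPA, a factor of fat and blood cells (42.9 ± 9.23 and 29.9 ± 9.67 CPM, SD, n = 3 each, log2 fold change -0.52, edgeR adjusted p = 0.311, between 0.00196 and 0.339 over 8 alternatives, 1 of which passed). Without siLSD1 replicate 3 the log2 fold change of CEBPA was -0.28, the lowest in size of the 6 fits that left out a library, and without siLSD1 replicate 1 it was -0.72. PPARG, the chief regulator of fat cells, named after its values were seen, was at 23.6 ± 2.89 and 25.3 ± 3.3 CPM (SD, n = 3 each), with a log2 fold change of 0.10 (edgeR adjusted p = 0.8). Epithelial markers summed to 2983 to 3604 CPM in siCTR and 2454 to 3059 in siLSD1, led by the simple keratins KRT18 (557 FPKM in siCTR, log2 fold change -0.32, edgeR adjusted p = 0.268, and -0.20 without siCTR replicate 2) and KRT8 (450 FPKM). The rest of the list lay far below the keratins, with CLDN4 at 5.48, EPCAM at 1.28, CDH1 at 1.24 and KRT19 at 0.092 FPKM in siCTR, and ESRP1 had no row. E-cadherin (CDH1) was at 6.15 ± 1.21 and 10.5 ± 1.05 CPM (SD, n = 3 each), with a log2 fold change of 0.77 and an edgeR adjusted p of 0.0699 that lay between 0.00299 and 0.0869 over 8 alternatives, 4 of which passed.

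Mesenchymal markers summed to 1520 to 1796 CPM in siCTR and 1530 to 1606 in siLSD1, led by LGALS1 and VIM (449 and 428 FPKM in siCTR). PDGFRB, a platelet-derived growth factor receptor of mesenchymal and perivascular cells, was the marker gene that passed the adjusted p. It had 257, 158 and 242 reads with siCTR and 505, 394 and 418 with siLSD1, and rose by a log2 fold change of 1.00 (SE 0.17, 95% interval 0.63 to 1.37, edgeR adjusted p = 0.0134). Without siLSD1 replicate 1 the adjusted edgeR p was 0.0596 and the log2 fold change 0.91. S100A4 had a log2 fold change of -0.39 (edgeR adjusted p = 0.223, between 0.0197 and 0.233 over 8 alternatives, 2 of which passed), and -0.24 without siCTR replicate 2.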
